A study of Homo sapiens with 6 samples.

Results

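Complexin 2 (CPLX2), its relative CPLX1 and 8 genes of the SNARE machinery of exocytosis (STX1A, STX3, STX4, SNAP23, SNAP25, SNAP29, VAMP3 and VAMP8) were followed in RNA-seq of luciferases-expressing HepG2 cells. These 10 genes were chosen by symbol out of 61541 Ensembl genes in the deposited counts. CPLX2 was picked because its change between the conditions was already known, so that all fold changes between the conditions given for the 10 genes are a description and not a test. HepG2 is a human hepatoblastoma line. The cells used here are a selected derivative that carries 2 luciferases on a mouse artificial chromosome vector, namely SLR3 behind antioxidant response elements (AREs, the sites bound by NRF2) and ELuc behind a thymidine kinase promoter as the internal control. There were 3 libraries from cells exposed to 100 μM sedanolide, a phthalide of celery oil, for 24 h, and 3 libraries from control cells, for which the labels name no agent. Nothing in the labels says whether the libraries of a group came from separate cultures, so the spread between them may be partly technical.

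Exocytosis ends with the fusion of a vesicle with the plasma membrane. A syntaxin and a SNAP protein on the target membrane and a VAMP protein on the vesicle zip into a bundle, the SNARE complex, which pulls both membranes together. Complexins are small cytosolic proteins that bind the assembled bundle and, with the calcium sensor synaptotagmin, hold or release fusion. CPLX1, CPLX2, STX1A and SNAP25 are best known from neurons and endocrine cells. STX3, STX4, SNAP23, VAMP3 and VAMP8 serve secretion and membrane recycling in many tissues, the polarized hepatocyte among them.

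The libraries held 16420258 to 26714853 expected counts. The ARE-driven SLR3 had 14.6 to 18.0 CPM (counts relative to the normalized library size) in the control libraries and 59.4 to 69.6 CPM in the sedanolide libraries, so that its expression followed the labels. ELuc, the internal control, had 18.5 to 18.7 CPM in the control libraries and 8.13 to 13.0 CPM in the sedanolide libraries, and its groups did not overlap either. The largest variation among the libraries did not part the groups, since component 1 of a principal component analysis (54.3% of the variance) set control 3 and sedanolide 1 and 2 apart from sedanolide 3 and controls 1 and 2. The share of mitochondrial transcripts was 4.23% to 5.22% in the former libraries (side B) and 1.43% to 2.15% in the latter (side A). All 8 hepatocyte markers examined were detected, among them ALB and HNF4A, with a summed level of 26675 to 40968 CPM in control and 19731 to 35049 CPM in sedanolide libraries. Most of that sum came from AFP and APOB, whose levels were higher on side A than on side B within each group. Of the 8 hepatocyte markers, 1 had a fitted change above 0, the median log2 fold change was -0.33 and 0 were called by edgeR, with 3 lower at an unadjusted p under 0.05. In 3 of them, ALB, TTR and FGB, all sedanolide libraries lay below all controls (ALB 803 to 914 against 1039 to 1249 CPM). Of all genes tested, 9.66% lay below in this way, and 927 of 14104 were lower at an unadjusted p under 0.05 by edgeR. Of 10 markers of neurons and neuroendocrine cells, CHGA and INSM1 had 0 counts in all libraries and SCG2 and RBFOX3 stayed at or below 0.085 CPM. Over all libraries ENO2 had 25.3 to 34.3 CPM, SYP 10.3 to 20.4, SYN1 2.93 to 4.60 and CHGB 2.02 to 3.33 CPM. The summed level of the 10 markers, most of it from TUBB3, was 142 to 190 CPM in control and 179 to 212 CPM in sedanolide libraries. Of these markers 5 were tested by edgeR, with a median log2 fold change of -0.054. None was called, and 1 was lower at an unadjusted p under 0.05. Of the markers of other cell types, COL1A2, DCN and LUM (fibroblasts), CD3E (T cells) and VWF (endothelium) had 0 counts in all libraries. Others were detected, namely PDGFRB with 14.9 to 23.8 CPM among the controls and 5.16 to 11.3 CPM after sedanolide (log2 fold change -1.42, not called, groups apart), CD68 with 8.85 to 13.9 and 14.2 to 14.7 CPM, and PECAM1 with 3.98 to 5.09 and 3.77 to 5.29 CPM. The part of these markers in the results was not tested. Fewer cells of a type and less RNA per cell cannot be told apart in such bulk libraries.

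The sequences bear on how far the complexin reads can be told apart and on where the letters of an ARE occur. CPLX1 and CPLX2 each have a coding sequence of 402 bases without the stop codon (GENCODE 44, the canonical transcripts), of which 336 aligned bases are identical (83.6%). The remaining exon bases, out of 7020 for CPLX2 and 2349 for CPLX1, were not compared. Within the coding sequences, the longest run that both share has 29 bases, fewer than the bases in a read. It is shown in capitals, with its flanks, on the strand of each gene. It lies within 1 coding exon of CPLX2 (chr5:175878958-175879016, plus strand, GRCh38) and within 1 of CPLX1 (chr4:792500-792558, minus strand).
CPLX2: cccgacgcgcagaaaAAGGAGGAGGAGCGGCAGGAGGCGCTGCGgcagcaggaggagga
CPLX1: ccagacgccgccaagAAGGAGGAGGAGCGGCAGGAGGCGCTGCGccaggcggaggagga
Among the other pairs compared, STX3 and STX1A were identical at 70.8% of aligned coding bases, SNAP23 and SNAP25 at 66.8%, STX3 and STX4 at 58.5%, SNAP23 and SNAP29 at 58%, and VAMP3 and VAMP8 at 53.4%.

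The core letters of an ARE, TGACNNNGC, were searched on both strands of the RefSeq promoter windows (GRCh38.p14, from 250 bases before to 50 bases after a start). Of the 10 genes, 8 had a window, with 10 starts in all. The window of CPLX2 (chr5:175796283-175796582) held no match. Matches were found in VAMP3, 117 bases before the start (chr1:7771169-7771197), and on the opposite strand at 1 of the 3 starts of STX4, 23 bases before it (chr16:31033062-31033090). They are shown in capitals on the strand of the gene.
VAMP3: cgtctcgctcTGACCCCGCcctggacgca
STX4: agcaataaagGCGAGGTCAgcaagggtcc
Such a match occurs in 13.3% of all 35116 windows. The ARE form TGACTCAGC, which is contained in the core, occurs in 0.561% of them and in none of the member windows. Within the CPLX2 gene itself (87712 bases), TGACTCAGC and its near form TGAGTCAGC were found once each. Both lie outside every annotated exon of CPLX2, the former at chr5:175809980-175809988 (minus strand), 588 bases from the nearest exon, and the latter at chr5:175843077-175843085 (plus strand), 5229 bases away. They are shown in capitals, on the strand of the match, within chr5:175809960-175810008 and chr5:175843057-175843105.
TGACTCAGC site: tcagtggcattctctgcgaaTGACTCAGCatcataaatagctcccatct
TGAGTCAGC site: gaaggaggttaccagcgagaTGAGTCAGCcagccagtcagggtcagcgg
Of 33203 windows of this length along the genome, 75.3% hold at least 1 of these forms, so that their presence in so long a gene is usual. A match of letters is a description and not a site of binding.

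CPLX2 (ENSG00000145920, chromosome 5 of GRCh38, 175796310 to 175884021, plus strand) rose 2.83-fold. It had 188, 146 and 169 CPM in controls 1 to 3 and 482, 491 and 449.5 CPM in sedanolide 1 to 3. All sedanolide libraries were far above the highest control library, control 1. The means were 168 ± 20.8 CPM without and 474 ± 22.1 CPM with sedanolide (SD, n = 3), and the log2 fold change was 1.5 (standard error 0.132, 95% interval 1.19 to 1.81). These values rest on 2997 to 12726 expected counts per library. Per transcript length, the authors' table gave 64.4, 56.7 and 53.6 TPM in controls and 142, 153 and 158 TPM in sedanolide libraries. CPLX2 was called higher in the fit across all genes (FDR of 0.05 and fold change of 1.5 with edgeR's quasi-likelihood test), as were 0.362% of the 14104 genes and reporters tested, while 0.312% were called lower. Among the 50 genes called higher it stood at position 22 by fold change and at position 6 by mean CPM in sedanolide libraries. The call was lost without control 1 (log2 fold change 1.58), control 2 (1.41) or sedanolide 2 (1.46), while the fold change stayed between 1.41 and 1.58 in all 6 fits that each left out a library.

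CPLX1 (ENSG00000168993, chromosome 4, 784957 to 826129, minus strand), which binds the same bundle as CPLX2, was less abundant. It had 25.0, 17.8 and 23.3 CPM in controls 1 to 3 and 30.1, 30.8 and 26.5 CPM in sedanolide 1 to 3. No control reached a sedanolide library, but sedanolide 3 exceeded control 1 by little. Its log2 fold change was 0.40 (standard error 0.158, 95% interval 0.033 to 0.78), and it was not called. CPLX3 and CPLX4, the complexins of the retina, had 0 counts in all 6 libraries, which allows up to 3 counts or 0.116 to 0.182 CPM per library (counting error only).

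**Figure D1:**
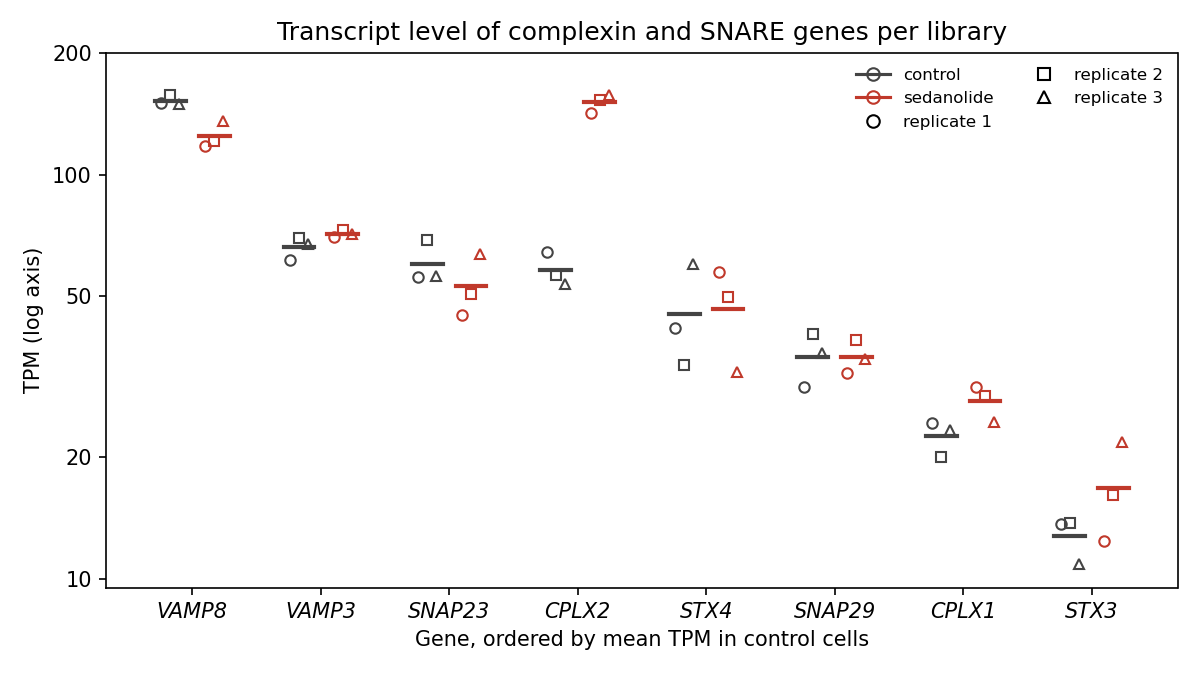
TPM of 8 of the 10 genes per library on a log axis (grey, control; red, sedanolide; symbols mark the replicate number, bars the mean of 3 libraries). CPLX2 moved from 58.2 TPM, near VAMP3 and SNAP23, to 151 TPM, above VAMP8. In STX3, STX4, SNAP23 and SNAP29 the groups overlap.

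STX3, STX4 and STX1A encode syntaxins of the plasma membrane, STX3 mainly the apical and STX4 the basolateral form in epithelia. STX3 (ENSG00000166900, chromosome 11, 59713456 to 59805882) had 21.3, 21.2 and 17.7 CPM in controls and 21.9, 25.5 and 30.5 CPM in sedanolide libraries. Its groups did not overlap in CPM, although sedanolide 1 lay close to controls 1 and 2, and in TPM they did overlap, with 12.4 TPM in sedanolide 1 against 13.7 TPM in controls 1 and 2. The log2 fold change was 0.37 (standard error 0.160, 95% interval -0.0022 to 0.75), and STX3 was not called. STX4 (ENSG00000103496, chromosome 16, 31032889 to 31042975) had 29.4, 21.7 and 47.0 CPM in controls and 48.7, 40.2 and 22.99 CPM in sedanolide libraries. Here the high libraries were control 3, sedanolide 1 and sedanolide 2, and the groups overlapped throughout. Its log2 fold change of 0.19 had an interval from -0.65 to 1.02, so that neither a rise nor a fall of 1.5-fold could be told from no change. STX1A (ENSG00000106089, chromosome 7, 73699206 to 73719672), the syntaxin of neuronal synapses, had 11 to 36 expected counts among the controls and 25.7 to 47 after sedanolide, and 0.62 to 2.18 CPM over all libraries. It is not in the TPM table, and its log2 fold change of 0.13 had an interval from -0.86 to 1.12.

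SNAP23, SNAP25 and SNAP29 each give a pair of helices to a SNARE bundle, SNAP25 in neurons and endocrine cells, SNAP23 in most other cells, and SNAP29 on intracellular membranes and autophagosomes. SNAP23 (ENSG00000092531, chromosome 15, 42491233 to 42545356) had 79.5, 90.8 and 84.9 CPM in controls and 75.2, 81.4 and 86.5 CPM in sedanolide libraries. SNAP29 (ENSG00000099940, chromosome 22, 20859007 to 20891214) had 48.0, 49.9 and 51.3 CPM in controls and 47.3, 48.0 and 43.2 CPM in sedanolide libraries. In both genes the groups overlapped. The log2 fold changes were -0.071 for SNAP23 (95% interval -0.34 to 0.20) and -0.11 for SNAP29 (-0.36 to 0.14), intervals that lie within a 1.5-fold change in either direction. SNAP25 (ENSG00000132639, chromosome 20, 10172395 to 10308258) had only 1 to 4 expected counts among the controls and 3 to 5 after sedanolide, did not pass the filter on low counts and was not tested. SNAP29 shares 225 exon bases with PI4KA on the opposite strand, whose counts were 249% of those of SNAP29, and SNAP23 shares 221 with LRRC57, at 15.5%. The libraries were directional, but the strand setting used for counting is not given in the sources used here.

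VAMP3 and VAMP8 are the vesicle partners, VAMP3 on recycling endosomes and VAMP8 on late endosomes and on secretory granules of exocrine cells. VAMP3 (ENSG00000049245, chromosome 1, 7771296 to 7781432) had 85.6, 87.9 and 98.8 CPM in controls and 112, 112 and 96.2 CPM in sedanolide libraries. Sedanolide 3 fell below control 3, so the groups overlapped in CPM, whereas in TPM sedanolide 1 (69.96 TPM) lay just above control 2 (69.87 TPM) and they did not. The log2 fold change was 0.23 (standard error 0.122, 95% interval -0.054 to 0.52). VAMP8 (ENSG00000118640, chromosome 2, 85561562 to 85582031) had 50.5, 47.9 and 52.5 CPM in controls and 44.6, 44.3 and 43.6 CPM in sedanolide libraries. All sedanolide libraries lay below all control libraries by a narrow gap. The log2 fold change of VAMP8 was -0.19 (standard error 0.102, 95% interval -0.43 to 0.054), and it was not called.

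Among the 9 genes tested, CPLX2 alone was called and the other 8 were not, beside 0.674% of all genes and reporters tested that were called in either direction. The fitted changes were above 0 in 6 genes and below 0 in 3, with a median of 0.19, while the median over all genes tested was 0.0057. The 2 groups of libraries did not overlap in 4 genes, with sedanolide above control in CPLX1, CPLX2 and STX3 and below it in VAMP8, and this held for 18.3% of all genes tested (8.69% above and 9.66% below). As this is the contrast by which CPLX2 was picked, nothing is read from these counts.

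**Figure D2:**
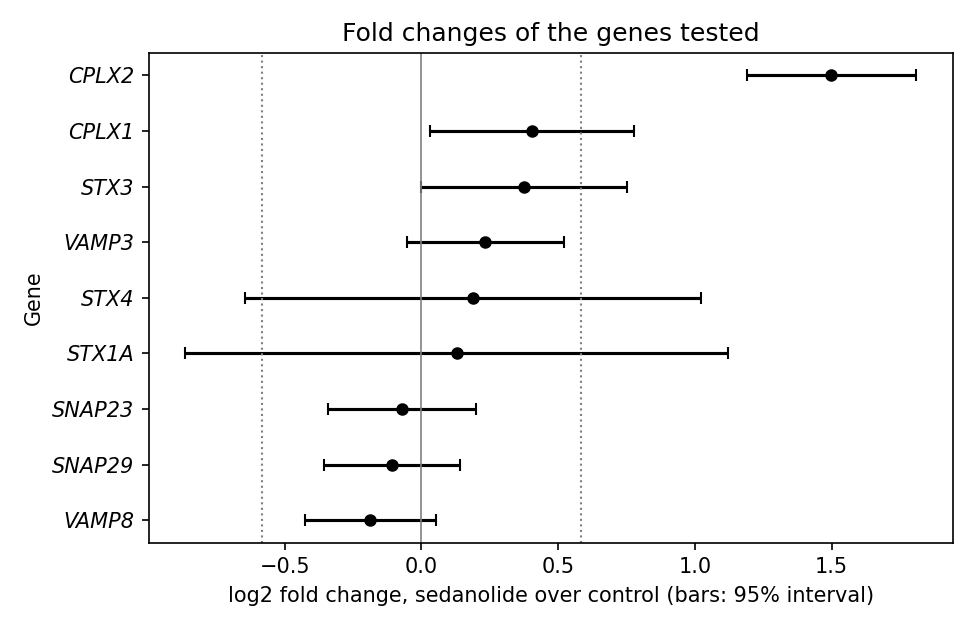
log2 fold changes of sedanolide over control from edgeR for the 9 genes tested, with 95% intervals as bars (n = 3 libraries per group). The solid line marks no change and the dotted lines a 1.5-fold change. The interval of CPLX2 (1.19 to 1.81) lies apart from those of the other genes, and those of STX4 and STX1A are the widest.

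The order of the transcript levels in control cells, compared per length in TPM, ran from VAMP8 (153 ± 4.04 TPM) over VAMP3 (66.3 ± 4.39), SNAP23 (60.3 ± 7.44), CPLX2 (58.2 ± 5.57), STX4 (45.2 ± 13.5), SNAP29 (35.5 ± 5.26) and CPLX1 (22.6 ± 2.23) to STX3 (12.8 ± 1.63; SD, n = 3). VAMP8 stood clear of the rest. VAMP3, SNAP23 and CPLX2 could not be ordered within their spread, and the range of STX4 reached those of its neighbors. In sedanolide-treated cells CPLX2 (151 ± 7.81 TPM) came first, and its lowest library (142 TPM) lay above the highest library of VAMP8 (136 TPM). SNAP23 (53.1 ± 9.64), STX4 (46.7 ± 12.8) and SNAP29 (35.4 ± 3.38) kept their places in the middle, and CPLX1 (27.6 ± 2.74) and STX3 (16.8 ± 4.70) stayed at the lower end. STX1A and SNAP25 are absent from the TPM table. Per 1000 exon bases they had 0.383 and 0.0061 CPM in control cells, compared with 23.9 for CPLX2 and 2.74 for STX3. These bases are those of all annotated exons of a gene together (20369 for SNAP25, 7308 for STX3). The values are therefore not on the scale of TPM and need not keep its ratios.

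The direction of component 1 touched the members unequally. Side A holds controls 1 and 2 and sedanolide 3, and side B holds control 3 and sedanolide 1 and 2. Each difference within a side or within a condition therefore sets a single library against the mean of the others there, and carries no measure of spread. The log2 difference between sedanolide and control for CPLX2 was 1.44 within side A and 1.52 within side B. CPLX1 differed by 0.33 and 0.38 and VAMP8 by -0.17 and -0.24 within sides A and B. In STX3 the differences within sides were 0.52 and 0.42, both larger than the fitted 0.37, and its level on side B relative to side A was -0.26 in control and -0.37 in sedanolide libraries (log2). STX4 was higher on side B, by 0.89 in control and 0.94 in sedanolide libraries (log2), and within sides its differences between the conditions were -0.14 and -0.088, opposite in sign to the fitted value. With the side as a term in the fit, which was added after the data were seen, the log2 fold change was 1.48 for CPLX2, 0.48 for STX3 and -0.11 for STX4, and CPLX2 remained the only member called. STX3 passed the FDR threshold in that edgeR fit (adjusted p = 0.0448) but stayed under a 1.5-fold change. The same fit called 381 of the 14104 genes and reporters tested, against 95 in the reported fit. The cause of the split between the libraries was not tested.

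**Figure D3:**
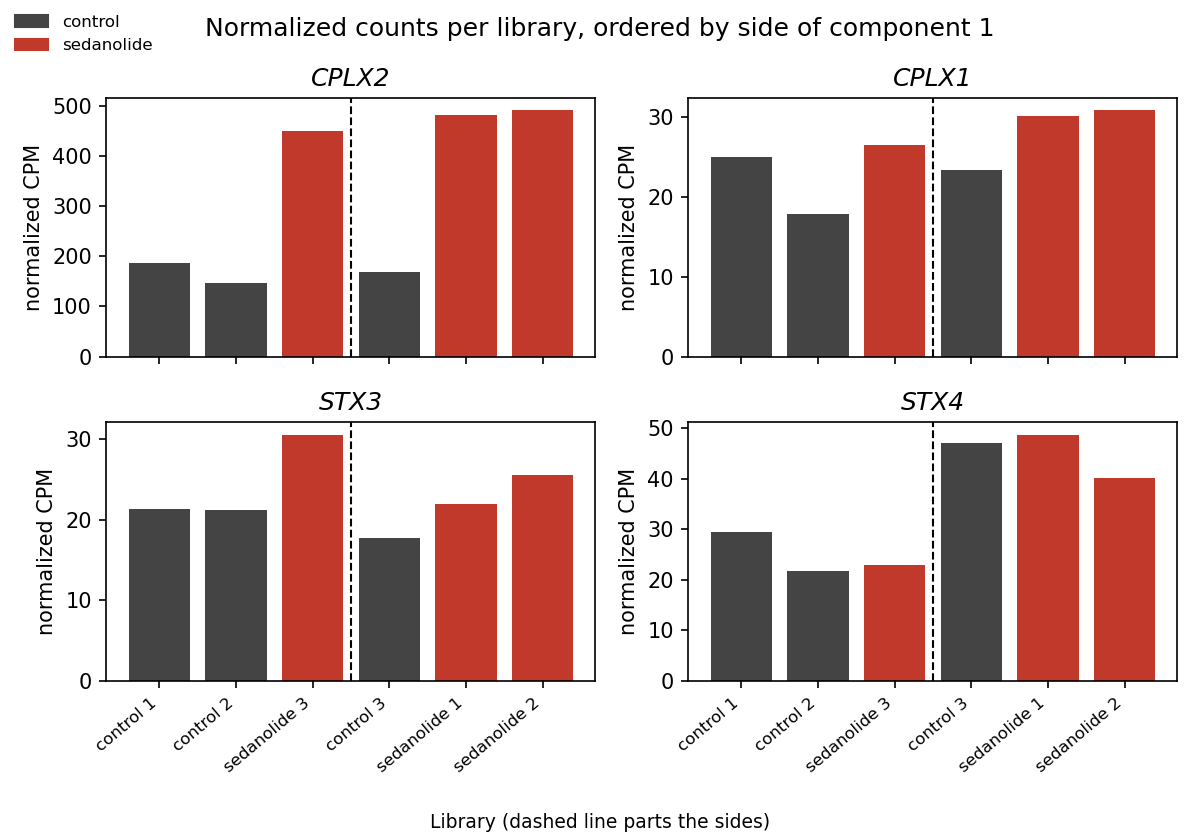
Normalized CPM of CPLX2, CPLX1, STX3 and STX4 in each library (grey, control; red, sedanolide), with the sides of component 1 parted by a dashed line. CPLX2, picked for its change between the conditions, is higher with sedanolide on both sides. STX4 is at 21.7 to 29.4 CPM on the left and at 40.2 to 48.7 CPM on the right whatever the treatment. Each side holds a single library of 1 of the conditions.

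Other genes of membrane fusion and secretion were taken from 8 lists written from general knowledge, which hold 118 genes with the members. Of the 108 genes that are not members, 78 had enough counts to be tested. None was called by edgeR, and 1 was higher and 6 were lower at an unadjusted p-value under 0.05, that is 8.97% against 11.9% of all genes tested. DESeq2 called 1 of them, RAB10. Their groups did not overlap in 13 genes (16.7%), close to the 18.3% of all genes. The median log2 fold change of the 78 genes was -0.035.

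RAB10, a small GTPase that carries vesicles to the plasma membrane, was the gene that was higher. It had 134, 144 and 163 CPM in controls and 250, 236 and 182 CPM in sedanolide libraries. The sedanolide libraries were all above the controls, with sedanolide 3 the nearest. The fitted log2 fold change of RAB10 was 0.60 with a standard error of 0.157. Adjusted over all genes by the Benjamini-Hochberg method, its p was 0.201 with edgeR and 0.0225 with DESeq2. Over all alternatives the adjusted p lay between 0.0225 and 0.896. The 6 genes that were lower, which are named here after their values were seen, were RAB37, SYT7 (a synaptotagmin of slow calcium-triggered fusion), VAMP5, UNC13D (a priming factor of granule release), RAB11B and BET1L. Their log2 fold changes ran from -0.81 (RAB37) to -0.27 (BET1L), with adjusted p-values of 0.254 to 0.376 from edgeR. The value of RAB37 rests on only 10 to 24 expected counts per library.

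By role, the 20 SNAREs of the ER, Golgi and endosomes had a median log2 fold change of 0.013, with YKT6 (0.039) and GOSR1 (-0.030) as their most abundant genes per length. The 14 tested SNAREs of the plasma membrane and their vesicle partners had a median of -0.021. Among the 16 tested assembly and priming factors (median -0.020), SCFD1, which guides SNAREs between ER and Golgi, had 199 ± 28.6 CPM without and 227 ± 33.4 CPM with sedanolide (SD, n = 3), a difference within the spread. The next most abundant of these factors per length, VPS33A, had a log2 fold change of 0.025 (95% interval -0.25 to 0.30). NSF and NAPA, which take used SNARE bundles apart, had log2 fold changes of 0.010 (95% interval -0.25 to 0.27) and -0.075 (95% interval -0.34 to 0.19). Of 22 genes listed as calcium sensors (synaptotagmins, DOC2 proteins and extended synaptotagmins), 8 were tested and 8 had 0 counts in all libraries. The tested ones, ESYT1 and ESYT2 among them, had a median of -0.28. Some were low, with control means of 1.57 CPM for SYT8, 0.881 for SYT15, 1.52 for DOC2B and 1.12 for ESYT3. SYT1, the sensor that acts with complexin at synapses, named for that role after its values were seen, had 6.80 ± 1.28 CPM without and 5.43 ± 0.725 CPM with sedanolide (SD, n = 3). The most abundant genes of this list were ESYT1 and ESYT2, which tether the ER to the plasma membrane. The secretory Rab proteins and effectors (14 tested) had a median of -0.065 with RAB11A at -0.057, and the 9 exocyst subunits, which hold vesicles at the membrane, a median of -0.072 with EXOC7 at -0.072 and EXOC4 at -0.067. CPLX2, picked for its known change, was the only one of the 87 tested list genes that edgeR called. Of all genes and reporters tested, 0.674% were called.

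**Figure D4:**
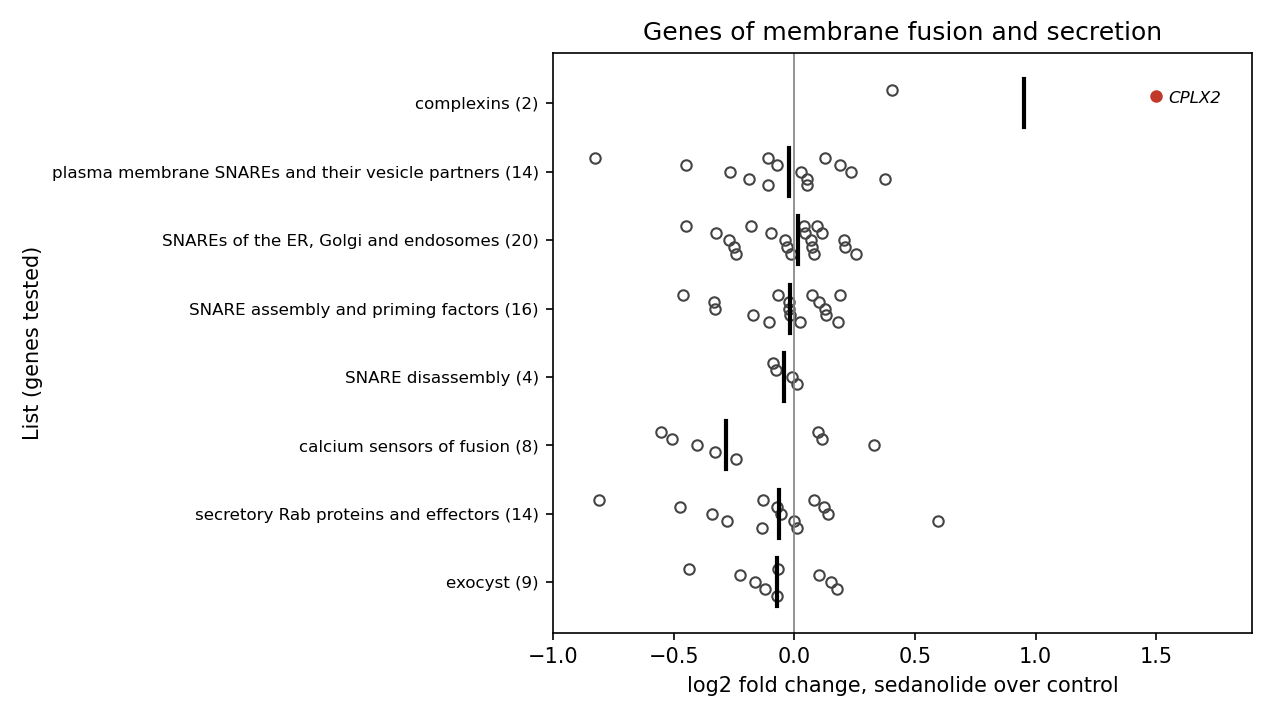
log2 fold changes of sedanolide over control from edgeR for the 87 tested genes of the 8 lists, members included. Each point is a gene, and black bars are list medians. The filled red point is CPLX2 (1.5), which was picked for its known change and is the only gene called. The other 86 genes lie between -0.83 and 0.60.

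The genes whose pattern over the 6 libraries was most like that of CPLX2, by Pearson correlation of log2 CPM among all genes tested, were AP1M2 (r = 0.998), CAPN2 (0.998), SLC51A (0.997), MAT1A (0.996) and FTH1 (0.995). They encode a clathrin adaptor subunit of epithelial sorting, a calpain protease, a subunit of the bile acid exporter of the basolateral membrane, methionine adenosyltransferase of the liver, and the ferritin heavy chain. AP1M2 had 15.99, 13.6 and 15.3 CPM in controls and 31.9, 30.2 and 30.1 CPM in sedanolide libraries. FTH1, which has pseudogenes of nearly the same sequence, had 2198 ± 203 CPM without and 3976 ± 149 CPM with sedanolide (SD, n = 3). With 6 libraries in 2 groups such a correlation mostly restates the difference between the groups, and 17 genes reached an r of at least 0.99.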

How the data were processed

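RNA of control and sedanolide-exposed cells was sequenced from directional mRNA libraries. According to the methods, reads were checked with FastQC, trimmed with Trimmomatic, aligned to GRCh38 with STAR and quantified with RSEM, with versions and annotation release not given in the sources used here. The deposited expected counts are not normalized. They were rounded before the fits and scaled to CPM with TMM factors. The second deposited table holds log2(TPM + 1) by the authors, filtered by a rule not given in the sources used here, and TPM values were taken back from it.

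Genes kept by edgeR's filterByExpr with its default settings and the 2 groups were tested with edgeR's quasi-likelihood test (edgeR 4.0.16, R 4.3.3), with Benjamini-Hochberg adjustment over all 14104 features tested, and a call needed an FDR below 0.05 with at least a 1.5-fold change. All 6 libraries entered without a covariate. Standard errors are the fitted log2 change over the root of its quasi-likelihood F, and 95% intervals use the degrees of freedom of the fit. The fit was tested on simulated data. Alternatives were DESeq2 1.42.0, limma 3.58.1, other scalings and filters (over 0.5 CPM in 1 library, or at least 1 count), a replicate block and leaving out each library. SD and p-values measure the spread between these libraries only.

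The members and lists were chosen with earlier results of these data known. Named were the members, list genes past both thresholds, the 2 most abundant genes of each list in the log2 table and the 5 genes most correlated with CPLX2, and others where stated. Positions are from GENCODE 44 (61369 gene IDs matched).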

Additional observations from a re-analysis of the deposited data

How the results depend on the processing

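CPLX2 stayed above 0 in 17 of 17 alternatives, with log2 fold changes of 1.36 to 1.58, and was called in 13. The adjusted p missed 0.05 with the replicate block (0.367) and without control 1 (0.0818), control 2 (0.0556) or sedanolide 2 (0.109). Of the members, 1 was called in the reported fit, 0 with the replicate block and 0 to 1 when a library was left out. Of the list genes, 1 was called in the reported fit, 2 with DESeq2 (CPLX2 and RAB10), 0 with the block and 0 to 1 when a library was left out. Over all genes, 95 were called in the reported fit, 328 with DESeq2, 158 among genes with at least 1 count, 60 with limma on the deposited log2(TPM + 1) table and 381 when the side along component 1 entered the fit, which was added after the data were seen. Leaving out a library gave 0 to 136, namely 0 without control 1 (1067 at an unadjusted p under 0.05) or sedanolide 2 (889), 8 and 29 without control 2 or 3, and 13 and 136 without sedanolide 1 or 3. The replicate block gave 0 by edgeR, with 772 at an unadjusted p under 0.05. Same-numbered libraries deviated from their group means with correlations of -0.124, -0.277 and -0.702. They also lay on opposite sides of component 1, which can hide a smaller effect shared by them. Whether the numbers pair the samples therefore cannot be told from these correlations. The cause of the shifts between these fits was not tested.

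Among the members not called, CPLX1, STX3 and VAMP3 were above 0 and SNAP23 and VAMP8 below 0 in all 17 alternatives, SNAP29 was above 0 in 2, STX4 in 14 and STX1A in 13 of the 15 that could give a value. On the deposited table the values were -0.19 for SNAP23, 0.0019 for SNAP29, 0.11 for VAMP3 and -0.29 for VAMP8. Scaling by library size alone moved the median of all genes by -0.043 on the log2 scale. Depth limits what can be said of STX1A and SNAP25.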
